A study of Mus musculus with 7 samples.

Results

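The enzymes of the polyol pathway and the transporters that load kidney cells with organic osmolytes or urea were followed in mouse kidney across 3 groups of mice. The genes were taken by symbol from the deposited expression table: Akr1b3, Sord, Khk, Slc5a3, Slc6a12, Slc6a6, Slc14a2 and Nfat5 were sought, and 7 of these 8 were found among the 17537 genes of the table. Expression of Slc5a3, the sodium-coupled myo-inositol transporter, was not analysed here. All 7 genes passed the filter on low values, at least 1 CPM (reads of a gene scaled to library size) in at least 2 libraries, together with 13976 genes in all.

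In the polyol pathway, aldose reductase turns glucose into sorbitol and sorbitol dehydrogenase turns sorbitol into fructose, which ketohexokinase then phosphorylates. Sorbitol is also one of the organic osmolytes, with betaine, taurine, myo-inositol and glycerophosphocholine, by which cells of the renal medulla balance the high salt and urea around them. The transcription factor NFAT5 (also called TonEBP) raises transcription of aldose reductase and of several osmolyte transporters when tonicity rises, and urea transporters help to build the urea gradient of the inner medulla.

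Messenger RNA was sequenced from whole renal tissue of C57BL/6 mice, which the sample labels describe as males aged 8 to 10 weeks at the start. Control mice (C, 3 libraries, replicates 2, 8 and 9) received no streptozotocin and were not diabetic. Mice of both diabetic groups were given streptozotocin, a toxin of insulin-producing islet cells, on 5 days at 60 mg/kg. One of them stayed untreated to the end at 22 weeks (DM-22, 2 libraries), and the other, after 16 weeks of hyperglycemia, drank the SGLT2 inhibitor dapagliflozin at 25 mg/kg for the last 6 weeks (DM+SGLT2i, 2 libraries). All mice were wild type, and no group of control mice on the inhibitor is among the 7 libraries. The labels number the samples of a group without saying more about their origin, so p-values measure the spread between these samples. The toxin models loss of insulin rather than insulin resistance.

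Libraries held between 46456125 and 56541594 reads on listed genes, and 1 read was worth between 0.0180 and 0.0231 CPM. Libraries of the same group differed widely in markers of kidney regions. All 7 markers of inner medulla and thin limb (among them Slc4a11, Prox1, Krt19, Krt7 and Sptssb) were present in every library, with a summed level of 753, 161 and 160 CPM in C replicates 2, 8 and 9, of 1182 and 280 CPM in DM-22 replicates 1 and 2, and of 389 and 564 CPM in DM+SGLT2i replicates 1 and 2. The 9 proximal tubule markers summed to 6496, 17605 and 15164 CPM in C, 6625 and 17828 CPM in DM-22, and 11783 and 11377 CPM in DM+SGLT2i, in the same order of replicates. C replicate 2 and DM-22 replicate 1 were thus highest in medullary and lowest in proximal markers. In bulk tissue, fewer cells of a type and less RNA per cell cannot be told apart.

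One promoter is shown because its gene, the betaine transporter Slc6a12, is a known NFAT5 target and varied nearly the most of these genes. The window runs from 250 bases before to 50 bases after the most upstream of the 5 Slc6a12 starts that RefSeq lists, at chr6:121342324-121342623 on the plus strand of GRCm38.p6. Capitals mark TGGAAA, the core of the tonicity-responsive enhancer that NFAT5 binds.
Slc6a12: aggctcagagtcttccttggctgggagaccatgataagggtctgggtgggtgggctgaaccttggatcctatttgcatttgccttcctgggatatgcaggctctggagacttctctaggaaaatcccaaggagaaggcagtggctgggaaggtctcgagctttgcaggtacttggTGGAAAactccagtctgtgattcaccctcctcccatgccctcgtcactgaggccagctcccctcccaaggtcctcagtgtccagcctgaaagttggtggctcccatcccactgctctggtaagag
The match begins at position -75 from that start, and the full tonicity-responsive enhancer consensus matches there as well. TGGAAA occurred on either strand in 21.4% of all 32851 promoter windows of this length, and the full consensus in 4.96%. Slc14a2 is left out of the count by gene, and no window was matched for Akr1b3 and Slc6a6. Of the 9 windows searched for 5 other genes (Slc6a12, Sord, Khk, Nfat5 and Slc5a3), only this one held TGGAAA. A match of letters is a description and does not show binding, and no sequencing read bears on it here.

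Compared per length of the principal GENCODE transcript, levels over the 7 libraries ranked from sorbitol dehydrogenase down to the betaine transporter. The mean was 948 CPM per kilobase for Sord, 380 for Khk, 94.0 for Slc6a6, 52.2 for Akr1b3, 18.0 for Slc14a2, 5.17 for Nfat5 and 3.52 for Slc6a12. The levels per kilobase of Sord and Khk did not overlap over the 7 libraries (651 to 1300 and 322 to 475), and neither overlapped with those of the other 5 genes. Each gene further down overlapped with its neighbour in this order: Slc6a6 spanned 52.6 to 118, Akr1b3 34.7 to 65.8, Slc14a2 0.705 to 66.2, Nfat5 2.91 to 6.42 and Slc6a12 0.227 to 11.6 CPM per kilobase. Compared within single libraries, Slc6a6 lay above Akr1b3 in every library, most narrowly in DM-22 replicate 2 (52.6 against 51.1). The order of the other neighbours among these 5 genes varied between libraries. Slc6a6 and Akr1b3 lay above Nfat5 and Slc6a12 in every library.

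**Figure D1:**
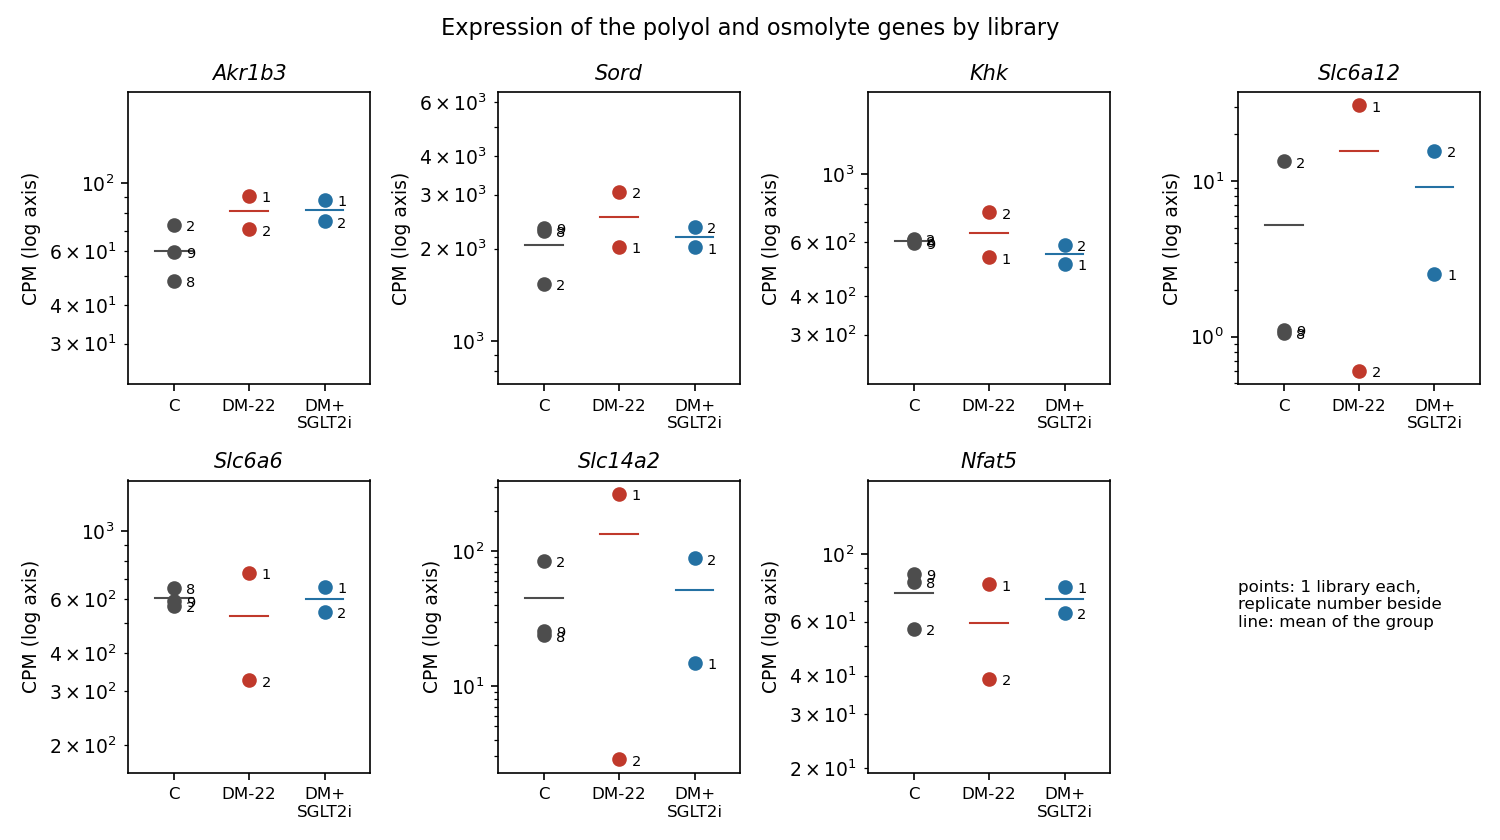
Level of each gene in CPM (vertical log axis, the same number of decades for the 5 genes of narrow spread) in each library of C, DM-22 and DM+SGLT2i. Points are single libraries with the replicate number beside them and lines are group means. Slc14a2 spans 2.84 to 267 CPM within DM-22 alone, whereas Khk spans 510 to 752 CPM over all libraries.

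Akr1b3 (ENSMUSG00000001642, GRCm38 chromosome 6, 34302434 to 34317478, minus strand) encodes aldose reductase, the enzyme that opens the polyol pathway. It stood at 73.2, 48.2 and 59.7 CPM in C replicates 2, 8 and 9. It reached 91.3 and 70.8 CPM in DM-22 and 88.4 and 75.2 CPM in DM+SGLT2i. Both DM+SGLT2i libraries lay above all controls, while DM-22 replicate 2 lay below C replicate 2, so that the 4 diabetic libraries and the 3 controls overlapped by this pair alone. Group means were 60.3 ± 12.5 CPM in C (SD, n = 3), 81.0 ± 14.5 in DM-22 (n = 2) and 81.8 ± 9.35 in DM+SGLT2i (n = 2).

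In limma, on log2(CPM + 0.5), the log2 difference of Akr1b3 from C was 0.43 for DM-22 (SE 0.22, limma adjusted p = 0.804) and 0.45 for DM+SGLT2i (SE 0.22), and neither passed the threshold of 0.05. DM+SGLT2i and DM-22 differed by 0.02 (95% interval -0.54 to 0.58), a range that holds changes of either sign. With all 4 diabetic libraries against the 3 controls the log2 difference was 0.44 (95% interval 0.05 to 0.83), a 1.36-fold higher level, with an unadjusted limma p of 0.0316 and an adjusted p of 0.993. This was the only one of the 7 genes with an unadjusted p under 0.05 in any of the 4 comparisons, so 1 of 7 in the comparison of all diabetic mice with C, where 1.96% of all tested genes had one. Scaling to the library total alone gave 0.41 with an unadjusted limma p of 0.0878.

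C replicate 2, the highest control in Akr1b3, was also the highest in inner medullary markers (753 against 161 and 160 CPM). C replicates 8 and 9 had nearly equal marker sums but Akr1b3 at 48.2 and 59.7 CPM, and in DM+SGLT2i the order was opposite, with Akr1b3 at 88.4 CPM beside 389 CPM of markers and at 75.2 CPM beside 564 CPM. Without C replicate 2, the Akr1b3 log2 difference was 0.58 in DM-22 versus C (limma adjusted p = 0.140), 0.60 in DM+SGLT2i versus C (limma adjusted p = 0.194) and 0.59 in all diabetic mice versus C (limma adjusted p = 0.114). Of all alternatives these gave the lowest adjusted p of Akr1b3, and the highest was above 0.99 in each comparison. Leaving out C replicate 2 also raised the share of all tested genes with an unadjusted p under 0.05 to 25.2%, 17.9% and 21.7%, so that 1 of 7 genes there is not above the background. Other libraries moved the value down: without C replicate 8 the log2 difference was 0.28, 0.30 and 0.29 in these comparisons, and without DM-22 replicate 1 it was 0.25 in DM-22 versus C. For all diabetic mice versus C, the unadjusted limma p rose to 0.130 without C replicate 8 and to between 0.0706 and 0.0758 without C replicate 9, DM-22 replicate 1 or DM+SGLT2i replicate 1, so that it was no longer under 0.05. Leaving out single libraries gave ranges of 0.25 to 0.61 in DM-22 versus C, 0.30 to 0.60 in DM+SGLT2i versus C and 0.29 to 0.59 in all diabetic mice versus C, all above 0. The part of the medullary markers in the Akr1b3 difference was not tested.

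Akr1b3 has close relatives, Akr1b7, Akr1b8 and Akr1b10, next to it on the same chromosome. How reads that match several of them were counted is not given in the sources used here, which leaves that share of its reads uncertain. The tested genes whose pattern over the 7 libraries was nearest to that of Akr1b3 were Cdh5, an endothelial cadherin, Ppp1r14a, an inhibitor of smooth muscle myosin phosphatase, and Mmd. Their root mean square log2 differences from it, after centring each gene on its mean, were 0.0990, 0.108 and 0.119. Cdh5 stood at 53.1, 38.8 and 40.3 CPM in C, 63.1 and 49.3 CPM in DM-22, and 67.6 and 60.9 CPM in DM+SGLT2i.

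Sord (ENSMUSG00000027227, chromosome 2, 122234749 to 122265340, plus strand) encodes sorbitol dehydrogenase. Its levels were 1531, 2281 and 2337 CPM in C, 2027 and 3059 CPM in DM-22, and 2017 and 2361 CPM in DM+SGLT2i. C replicate 2 was lowest and DM-22 replicate 2 highest, and all groups overlapped. Proximal tubule markers were likewise lowest in C replicate 2 and highest in DM-22 replicate 2, and their part in the Sord values was not tested. The log2 difference from C was 0.31 in DM-22 (95% interval -0.51 to 1.13) and 0.12 in DM+SGLT2i (95% interval -0.70 to 0.94). Leaving out single libraries moved the first from 0.0096, without DM-22 replicate 2, to 0.60, without DM-22 replicate 1, and without C replicate 2 it was 0.11.

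Khk (ENSMUSG00000029162, chromosome 5, 30921431 to 30931248, plus strand) encodes ketohexokinase, which commits fructose to metabolism. The controls were close together at 615, 609 and 596 CPM. DM-22 lay on either side of them at 536 and 752 CPM, and both DM+SGLT2i libraries lay below them at 510 and 588 CPM. The log2 difference from C was 0.07 in DM-22 (95% interval -0.43 to 0.56) and -0.15 in DM+SGLT2i (95% interval -0.64 to 0.34). Khk varied least of the 7 genes, with a range of 0.56 on the log2 scale against a median of 0.72 over all tested genes.

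Within a library, the steps of the pathway stood in different proportions. Sord exceeded Akr1b3 per kilobase 12.3, 27.9 and 23.1 times in C, 13.1 and 25.5 times in DM-22, and 13.5 and 18.5 times in DM+SGLT2i. The lowest ratios were in C replicate 2, DM-22 replicate 1 and DM+SGLT2i replicate 1, so they occurred in every group. The ratio of Khk to Sord in CPM was 0.402 in C replicate 2 and between 0.246 and 0.267 in the other 6 libraries.

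Slc6a12 (ENSMUSG00000030109, chromosome 6, 121343076 to 121365775, plus strand) encodes the betaine transporter BGT1, whose promoter is printed above. It stood at 13.4, 1.05 and 1.11 CPM in C (733, 50 and 52 reads). In DM-22 it was 30.8 and 0.601 CPM (1710 and 26 reads), and in DM+SGLT2i 2.52 and 15.7 CPM (129 and 869 reads). Each group had 1 library at or above 13.4 CPM and the rest at or below 2.52 CPM. DM-22 replicate 1 thus exceeded DM-22 replicate 2 by 51.2-fold, with the group means at 5.20 ± 7.13, 15.7 ± 21.3 and 9.11 ± 9.32 CPM.

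The differences between groups were small beside that spread. The limma log2 difference of Slc6a12 was 0.85 in DM-22 versus C (95% interval -3.09 to 4.78), 1.10 in DM+SGLT2i versus C (-2.83 to 5.03) and 0.25 in DM+SGLT2i versus DM-22 (-4.05 to 4.56). These intervals reach a log2 difference of 2.83 or more in either direction, so these libraries do not settle the sign of a change.

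Slc14a2 (ENSMUSG00000024552) encodes the UT-A urea transporters, which move urea across the inner medullary collecting duct and the thin descending limb. It stood at 84.9, 23.7 and 25.6 CPM in C, 267 and 2.84 CPM in DM-22, and 14.8 and 88.5 CPM in DM+SGLT2i. Both the highest and the lowest library belonged to DM-22, 93.9-fold apart, and DM+SGLT2i replicate 2 exceeded replicate 1 by 5.98-fold. Its range over the 7 libraries, 6.32 on the log2 scale, was wider than that of 99.9% of the tested genes, and that of Slc6a12, 4.83, wider than that of 99.7%.

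The limma log2 difference of Slc14a2 was -0.34 in DM-22 versus C (95% interval -4.62 to 3.95, adjusted p = 0.973), -0.03 in DM+SGLT2i versus C (-4.32 to 4.25) and 0.30 in DM+SGLT2i versus DM-22 (-4.39 to 5.00). Without DM-22 replicate 1 the first was -3.50 (limma adjusted p = 0.810) and without DM-22 replicate 2 it was 2.82. Without C replicate 2 it was 0.25. The sign of the difference thus depended on which single library was left out.

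Slc14a2 and Slc6a12 were highest in DM-22 replicate 1 and lowest in DM-22 replicate 2, and between these libraries 7 of 7 inner medulla and thin limb markers, 7 of 7 thick ascending limb markers and 4 of 8 collecting duct principal cell markers were also higher in replicate 1. So were 6 of 6 macrophage and 5 of 5 urothelial markers, and 1 of 9 proximal tubule markers. The share of all tested genes that were higher in replicate 1 was not counted. The transporter Slc4a11 stood at 85.0 CPM in DM-22 replicate 1 and at 2.54 CPM in replicate 2. Thick ascending limb markers summed to 7284, 5892 and 5003 CPM in C, 15954 and 5186 CPM in DM-22, and 6393 and 9298 CPM in DM+SGLT2i. Collecting duct principal cell markers summed to 574 to 1157 CPM in C, 846 to 1248 CPM in DM-22 and 644 to 1121 CPM in DM+SGLT2i, and the 6 macrophage markers to 135 to 488, 144 to 269 and 249 to 295 CPM. No marker of these lists was at 0 in any library. The part of these markers in the values of both transporters was not tested.

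**Figure D2:**
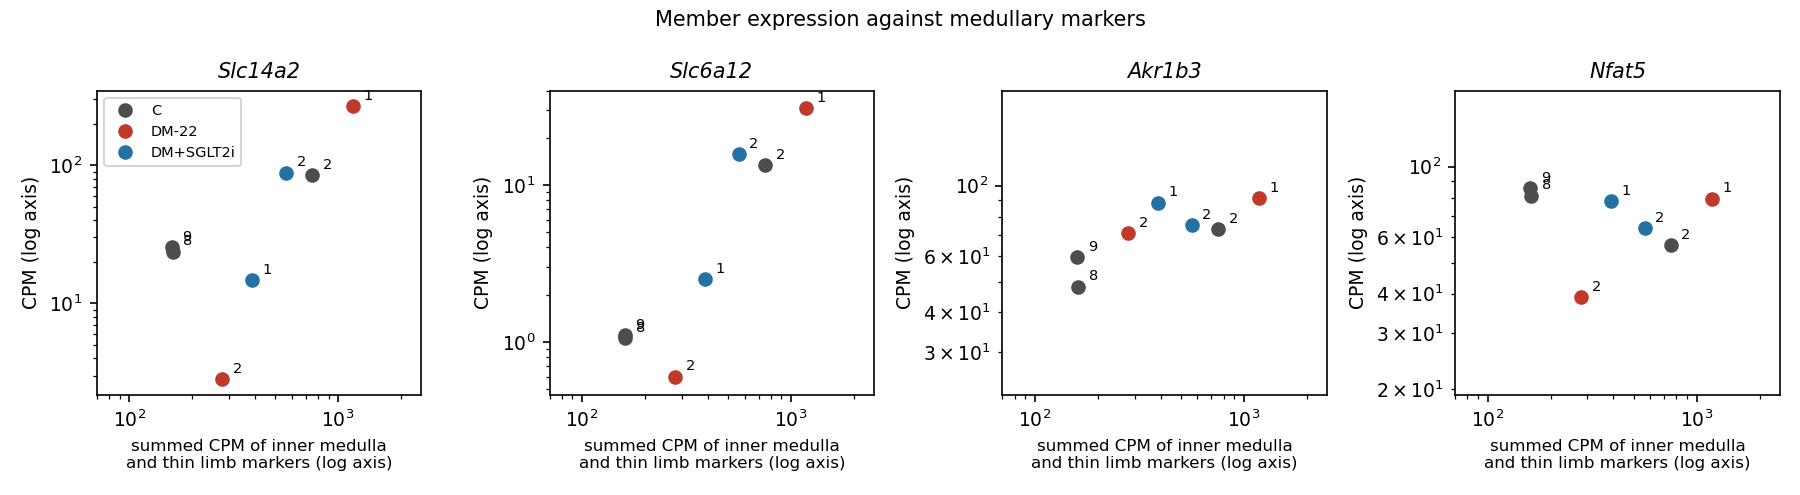
Level of 4 genes in CPM (vertical log axis) against the summed CPM of 7 inner medulla and thin limb markers (horizontal log axis), 1 point per library with its replicate number. Slc14a2 and Slc6a12 are highest in the library with the highest marker sum, 1182 CPM, but lowest in DM-22 replicate 2, whose sum of 280 CPM is above those of C replicates 8 and 9.

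The libraries stood in another order in Slc14a2 than in the inner medullary marker sum, whose part in the values was not tested. DM-22 replicate 2 had a higher inner medullary sum (280 CPM) than C replicates 8 and 9 (161 and 160 CPM). Its Slc14a2 level was 2.84 CPM against 23.7 and 25.6 CPM. DM+SGLT2i replicate 1, at 389 CPM of these markers, likewise held less Slc14a2 (14.8 CPM) than those controls. Its marker sum included Krt19 at 43.9 CPM and Sptssb at 15.6 CPM, both at their highest in that library. The 5 urothelial markers summed to 136 CPM in DM+SGLT2i replicate 1, to 58.1 CPM in C replicate 2 and to at most 19.9 CPM in the other libraries.

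Both transporters were also set against each other within each library. Slc6a12 amounted to 0.158, 0.0444 and 0.0435 of the Slc14a2 level in CPM in C replicates 2, 8 and 9. The ratio was 0.115 and 0.211 in DM-22 and 0.171 and 0.177 in DM+SGLT2i. All 4 diabetic libraries lay above C replicates 8 and 9, and C replicate 2 lay among them.

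The genes nearest in pattern to Slc14a2, the gene of widest range, were Tmem207, Tnn, which encodes tenascin-N, and Scel, which encodes sciellin. Their root mean square log2 differences from it were 0.576, 0.593 and 0.600. Tmem207 stood at 32.3, 11.0 and 12.2 CPM in C, 85.1 and 3.28 CPM in DM-22, and 10.1 and 33.4 CPM in DM+SGLT2i. Its highest and lowest level were in DM-22, but it was chosen for its likeness to Slc14a2 in these same libraries.

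Slc6a6 (ENSMUSG00000030096, chromosome 6, 91684053 to 91759066, plus strand) encodes the taurine transporter. It stood at 569, 654 and 590 CPM in C, 731 and 325 CPM in DM-22, and 656 and 546 CPM in DM+SGLT2i. The controls and the treated mice covered nearly the same levels, and the untreated diabetic mice lay on either side of them. The limma log2 difference from C was -0.31 in DM-22 (95% interval -1.13 to 0.51) and -0.01 in DM+SGLT2i (-0.83 to 0.81).

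Nfat5 (ENSMUSG00000003847, chromosome 8, 107293470 to 107379517, plus strand), the tonicity-responsive regulator itself, stood at 56.8, 81.1 and 85.8 CPM in C, 79.5 and 39.0 CPM in DM-22, and 78.2 and 64.0 CPM in DM+SGLT2i. DM-22 replicate 2 was the lowest library in Nfat5, as it was in Slc6a6, Slc6a12 and Slc14a2. C replicate 2, in contrast, was the lowest control in Nfat5 and the highest in Slc6a12 and Slc14a2. The log2 difference from C was -0.40 in DM-22 (95% interval -1.18 to 0.39, limma adjusted p = 0.810) and -0.05 in DM+SGLT2i (-0.84 to 0.74). NFAT5 is regulated to a large part through its protein, which was not measured.

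**Figure D3:**
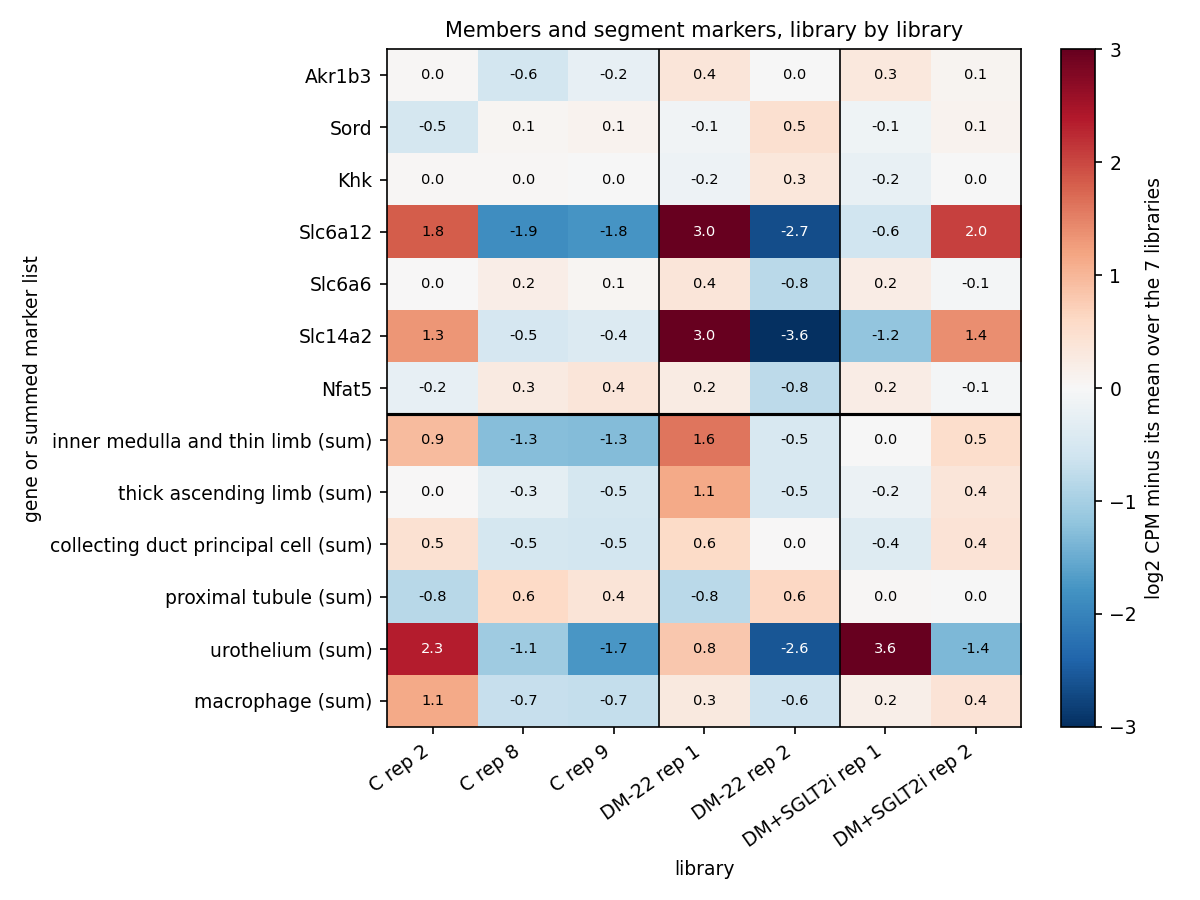
log2(CPM) of each gene and of each summed marker list minus its own mean over the 7 libraries (color and printed number), with libraries in columns and groups separated by lines. DM-22 replicates 1 and 2 stand at opposite ends for Slc6a12 and Slc14a2, while Khk and Akr1b3 stay nearer to their means.

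Slc5a3 shares its first exon with Mrps6, a mitochondrial ribosomal protein gene: the exon at chr16:92058322-92058480 (GRCm38) lies with all its 159 bases inside the first Mrps6 exon. Reads there cannot be assigned to either gene. Mrps6, which was looked at after its values were seen, stood at 129, 48.3 and 56.8 CPM in C, 246 and 46.3 CPM in DM-22, and 52.8 and 105 CPM in DM+SGLT2i. Its highest libraries, DM-22 replicate 1, C replicate 2 and DM+SGLT2i replicate 2, were also the highest of their groups in Slc14a2 and Slc6a12.

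Across the comparisons, 0 of 7 genes passed an adjusted p of 0.05 in DM-22 versus C, DM+SGLT2i versus C, DM+SGLT2i versus DM-22 or all diabetic mice versus C, and 0% of all tested genes passed in each (limma). At an unadjusted limma p under 0.05 the numbers were 0, 0, 0 and 1 of 7, against 4.47%, 1.08%, 3.91% and 1.96% of all tested genes. limma-voom on the recovered reads also called 0 genes in each comparison. Median log2 differences of the 7 genes were 0.07, -0.01, 0.25 and -0.04, against 0.00, -0.01, 0.00 and 0.00 over all tested genes. The first 2 comparisons share their controls, the third shares libraries with both, and the fourth pools the first 2.

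Groups without overlap were counted as well. No gene of the 7 separated DM-22 from C (20.1% of all tested genes did), DM+SGLT2i from DM-22 (41.5%) or all diabetic mice from C (2.69%). Akr1b3 (higher) and Khk (lower) separated DM+SGLT2i from C, 2 of 7 where 12.3% of all tested genes did. Without C replicate 2, Akr1b3 (higher) and Nfat5 (lower) separated all diabetic mice from the controls, 2 of 7 against 35.9%.

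Without DM-22 replicate 1, Nfat5, Slc14a2 and Slc6a6 had an unadjusted limma p under 0.05 both in DM-22 versus C (5.55% of all tested genes) and in DM+SGLT2i versus DM-22 (5.85%), with DM-22 represented by replicate 2 alone and its spread taken from the other groups. The log2 differences were then -0.91, -3.50 and -0.89 from C and 0.85, 3.46 and 0.88 from DM-22 to DM+SGLT2i. Adjusted p was 0.810 and 0.742, so none passed, and these values describe DM-22 replicate 2.

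**Figure D4:**
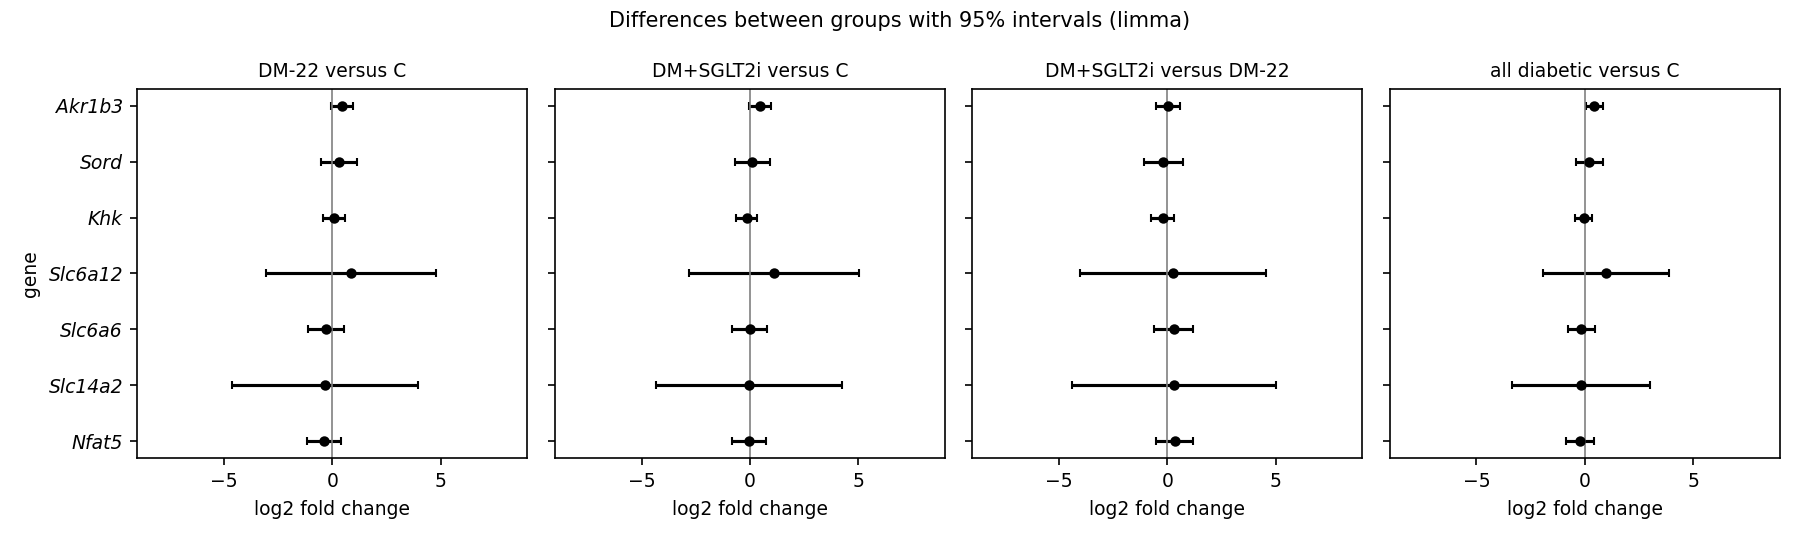
Log2 fold change of each gene (points) with its 95% limma interval (bars) in 4 comparisons, on 1 shared horizontal axis. All intervals cross 0 except that of Akr1b3 in all diabetic mice versus C (0.05 to 0.83), and those of Slc6a12 and Slc14a2 are the widest.

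Other genes of the same pathways were examined in 6 lists, of which 43 genes were tested and 0 passed an adjusted p of 0.05 in any comparison (limma). At an unadjusted limma p under 0.05 they were Ado and Aqp3, higher in DM-22 versus C, and Hsph1, lower in DM+SGLT2i versus DM-22, so 2 and 1 of 43 where 4.47% and 3.91% of all tested genes had one. In fructose handling, 8 genes had a median log2 difference from C of -0.12 in DM-22 and 0.02 in DM+SGLT2i.

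The 6 inositol genes had medians of -0.12 and 0.24. Miox, the proximal tubular enzyme that breaks down myo-inositol, led them with 1046, 2648 and 2505 CPM in C, 1258 and 2519 CPM in DM-22, and 1527 and 1767 CPM in DM+SGLT2i, and its low libraries, C replicate 2 and DM-22 replicate 1, were those with few proximal markers. The 9 genes of betaine and glycerophosphocholine had medians of 0.04 and 0.10. Between DM+SGLT2i and DM-22 their median was 0.30, against 0.00 over all tested genes, with 8 of 9 positive. This was the highest median of the 6 lists in that comparison, with the others between -0.24 and 0.07. The 9 proximal tubule markers had a median of 0.17 there, with 7 of 9 positive, and their part was not tested. None of the 9 betaine and glycerophosphocholine genes had an unadjusted limma p under 0.05 in that comparison. Sardh, the sarcosine dehydrogenase downstream of betaine, led them with 389, 698 and 675 CPM in C, 467 and 840 CPM in DM-22, and 629 and 593 CPM in DM+SGLT2i.

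Of 4 taurine genes 3 were measured, with medians of 0.32 and 0.12. Csad, which makes hypotaurine, stood at 349, 329 and 326 CPM in C, 356 and 234 CPM in DM-22, and 241 and 247 CPM in DM+SGLT2i, so that both treated libraries lay below all controls (log2 difference -0.46). Ado, a thiol dioxygenase, stood at 34.6, 28.5 and 29.5 CPM in C against 39.5 and 40.3 CPM in DM-22, and at 32.3 and 34.7 CPM in DM+SGLT2i. Both DM-22 libraries lay above every control, with a log2 difference of 0.37 (SE 0.14, limma adjusted p = 0.804).

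The 8 genes of urea and water transport had medians of 0.11 and 0.22. Aqp3, a basolateral water channel of the collecting duct, stood at 104, 118 and 118 CPM in C, 155 and 142 CPM in DM-22, and 111 and 142 CPM in DM+SGLT2i, and its log2 difference from C was 0.39 in DM-22 (SE 0.16, limma adjusted p = 0.804). Aqp1, the most abundant by CPM, stood at 1667, 1017 and 1031 CPM in C, 2121 and 887 CPM in DM-22, and 1120 and 1418 CPM in DM+SGLT2i. The urea transporter gene Slc14a1 and the water channel gene Aqp4, named after their values were seen, differed between DM-22 replicates 1 and 2 in the way Slc14a2 did, at 18.6 and 0.393 CPM and at 109 and 3.91 CPM.

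Of 9 other genes of the tonicity response, medians were 0.15 and 0.12. Hsph1, a heat shock protein of the HSP110 family, stood at 144 and 185 CPM in DM-22 and at 64.4 and 104 CPM in DM+SGLT2i, a log2 difference of -0.99 (SE 0.33, limma adjusted p = 0.881), with 90.5, 97.3 and 150 CPM in C. The near-identical Hspa1a and Hspa1b, named after their values were seen and uncertain because they share reads, stood at 621 and 662 CPM in C replicate 9 and at or below 184 CPM in the other 6 libraries.

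**Figure D5:**
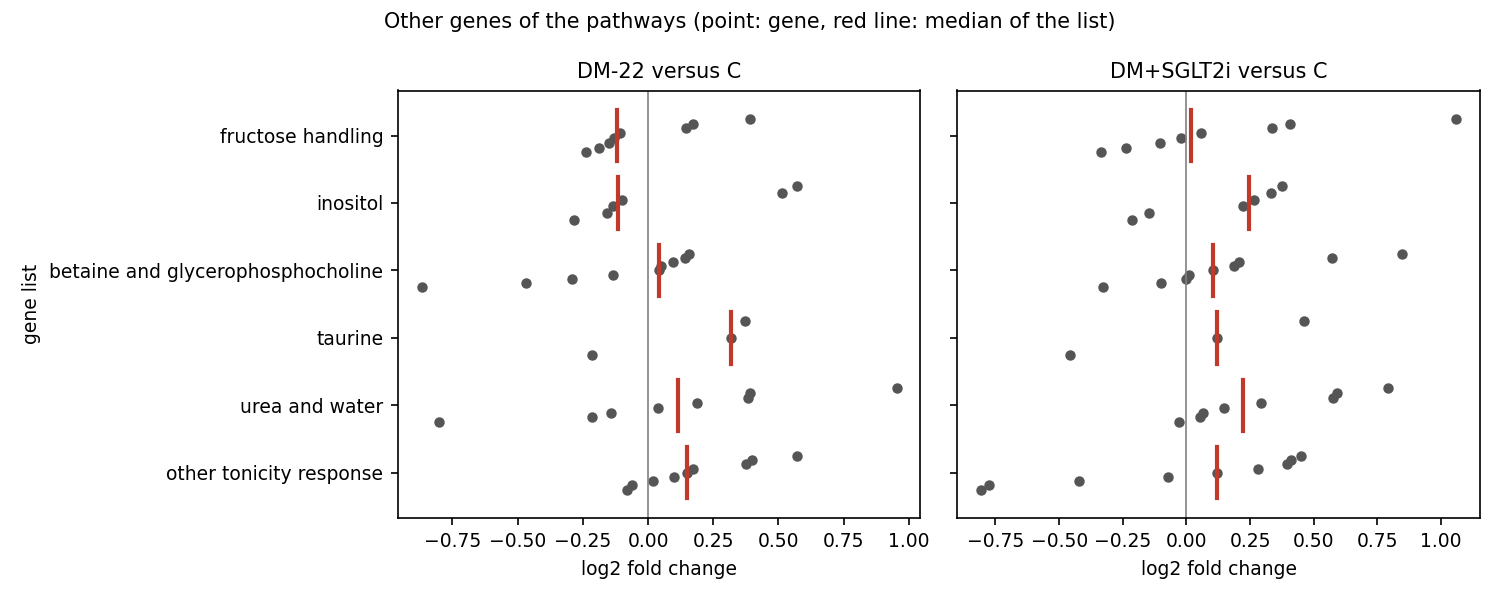
Log2 fold change of each tested gene of the 6 pathway lists (points, spread vertically for sight only) in DM-22 versus C and in DM+SGLT2i versus C, with the median of each list as a red line. Medians lie between -0.12 and 0.32 in DM-22 and between 0.02 and 0.24 in DM+SGLT2i, and no gene passed the adjusted threshold.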

How the data were processed

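RNA sequencing of renal tissue covered 7 libraries in 3 groups, taken from the sample labels. Per the submitters' processing notes, bcl2fastq, FastQC, Trim Galore, STAR and edgeR were used with mm10. The read counter and the versions are not given in the sources used here. The authors deposited log2 values: counts scaled to the library, with TMM factors (0.891 to 1.08) and a constant averaging 2 reads. The design had assumed CPM or log2 CPM. CPM were recovered by subtracting the floor of -4.66 (0.0395 CPM), and 100% of values were whole reads within 0.05 read or 0.1%. All 7 value columns were used and 0 were left out.

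Groups were compared with limma 3.58.1 (R 4.3.3, eBayes with trend, two-sided) on log2(CPM + 0.5), all 7 libraries in 1 fit, Benjamini-Hochberg over 13976 genes, threshold 0.05. Fold changes are on that scale, which understates low genes. The paper's main text names no test for the sequencing comparisons. All diabetic mice were compared with C in a second fit. The pipeline was tested on simulated data. Intervals are 95%, from 2 or 3 libraries a group. Alternatives were pseudocounts 0.1 and 2, no filter, library totals, median-of-ratios factors, only the groups compared, limma-voom on recovered reads, leaving out each library and a replicate block.

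The genes and lists were chosen with earlier results of these data known. Named were all members, list genes with an unadjusted p under 0.05 in a comparison of 2 of the 3 groups, the most abundant gene of each list, the markers, and the 3 genes nearest in pattern to Akr1b3 and to the gene of widest range. Other named genes are marked, and some items that the rule names are not reported here. Positions are GENCODE M21 and promoters RefSeq, both on GRCm38. Promoter windows of 5 of 8 genes are reported, with Slc14a2 left out and no window matched for Akr1b3 and Slc6a6. Figures were drawn with matplotlib 3.10.9.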

Additional observations from a re-analysis of the deposited data

How the results depend on the processing

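Under the alternatives, 356 log2 differences of the 7 genes kept their direction and their side of the threshold, and no gene of the 7 passed an adjusted p of 0.05 under any of them. Of the 36 that changed sign, 4 came from settings other than leaving out a library, all within 0.05 of 0 on the log2 scale: scaling to library totals gave -0.024 for Khk in DM-22 versus C and 0.0070 for Slc6a6 in DM+SGLT2i versus C, a pseudocount of 2 gave -0.045 for Slc6a12 and median-of-ratios factors gave -0.0097 for Akr1b3, both in DM+SGLT2i versus DM-22. Part of the 356 kept their direction by construction. The log2 difference cannot change with no filter, only the groups compared, the replicate block or a left-out library outside the comparison. Library totals moved the median of all genes to 0.11 in DM+SGLT2i versus DM-22 and to -0.08 in DM-22 versus C. The cause was not tested.

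Leaving out each library gave these log2 ranges where the sign changed. In DM-22 versus C they were -3.50 to 2.82 for Slc14a2, -1.57 to 3.26 for Slc6a12, -0.18 to 0.31 for Khk, -0.89 to 0.28 for Slc6a6 and -0.91 to 0.11 for Nfat5. In DM+SGLT2i versus C they were -0.081 to 0.23 for Sord, -1.30 to 1.24 for Slc14a2, -0.14 to 0.12 for Slc6a6, -0.24 to 0.090 for Nfat5 and -0.11 to 2.31 for Slc6a12. In DM+SGLT2i versus DM-22 they were -0.16 to 0.20 for Akr1b3, -0.49 to 0.11 for Sord, -0.46 to 0.031 for Khk, -2.16 to 2.67 for Slc6a12, -0.29 to 0.88 for Slc6a6, -2.86 to 3.46 for Slc14a2 and -0.17 to 0.85 for Nfat5. In all diabetic mice versus C they were -1.19 to 0.92 for Slc14a2, -0.16 to 0.029 for Khk, -0.30 to 0.085 for Slc6a6 and -0.41 to 0.0026 for Nfat5. Genes called over the whole table ranged from 0 to 2, 0 to 17 and 0 to 3 in DM-22, DM+SGLT2i and all diabetic mice versus C, the higher number each time without C replicate 2. A lone library was assumed to vary like the other groups.

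With the replicate block, DM+SGLT2i versus DM-22 had 0 of the 7 genes and 0 genes in all past the threshold, as without it, and 696 genes against 547 at an unadjusted limma p under 0.05. The labels do not say whether same-numbered libraries belong together, and the correlation of their deviations was -0.04. The 2 or 3 libraries a group limit the precision, and whether their spread is between mice or between pieces of tissue cannot be told apart.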
